A study of Mus musculus with 6 samples.

Results

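Tcf21, Pdgfra, Nr2f1, Nr2f2, Maf, Dcn, Gli1 and Ptch1 are 8 genes used as markers of the gonadal stroma and of the response to hedgehog ligands. They were chosen by symbol, from what is known of interstitial progenitor cells, by a rule that uses no measured value. Earlier results of these data were known when the choice was made. The count table holds 48709 genes. All 8 were found in it by Ensembl identifier, and all 8 were among the 20167 genes that passed the filter on low counts.

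The libraries are bulk RNA-seq of ovaries taken at 13.5 days post coitum (dpc) from wild type CD1 mice. The 3 exposed libraries come from embryos whose dams were gavaged with acetaminophen (APAP, 30 mg/kg/day) together with ibuprofen (IBU, 15 mg/kg/day) from 10.5 to 13.5 dpc, and the 3 control libraries from embryos of dams given the ethanol diluent over the same days. Both drugs inhibit prostaglandin synthesis, and the comparison asks how the transcriptome of the fetal ovary differs after exposure. Each library was made from a pool of gonads taken from more than 1 litter, and the sample titles name only ibuprofen where the exposure label names both drugs.

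Hedgehog ligands are secreted by one cell type and read by its neighbours. The ligand binds Patched, the receptor encoded by Ptch1, which otherwise holds Smoothened silent, and GLI transcription factors then switch on target genes, among them Gli1 and Ptch1 themselves. In the gonad the responding cells are largely mesenchymal cells of the interstitium, the precursors of steroidogenic and other stromal cells, and these cells also carry Pdgfra, Tcf21, Nr2f2 and collagen-binding proteoglycans such as decorin.

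The libraries held 37811968 to 48954631 counts. Levels are given as CPM (counts per 1000000 counts of the library) after scaling by the trimmed mean of M values, whose factors lay between 0.969 and 1.04. Replicate 3 of both groups stood apart in liver transcripts: the 12 liver genes summed to 2009 CPM in control replicate 3 and 3270 CPM in exposed replicate 3, and to 195 to 568 CPM in the remaining 4. The 6 spermatid genes, which an ovary of this stage should lack, summed to 31.5 to 122 CPM in the controls and 1.42 to 4.99 CPM in the exposed libraries. The 9 erythroid genes summed to 2076 to 12471 CPM. Markers of the ovary itself were present throughout, with 8 supporting cell genes such as Foxl2 and Wnt4 summing to 752 to 1015 CPM.

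Nr2f1 and Nr2f2 encode COUP-TFI and COUP-TFII, nuclear receptors with no settled ligand, and are close copies of one another in the part that reads DNA. Their coding sequences are shown over 90 bases around their longest identical run (bases 232 to 321 of the coding sequence of Nr2f1-201 and 220 to 309 of Nr2f2-201, GENCODE M21), because this is where a read could be assigned to the wrong gene. Capitals mark the 4 bases that differ, which leaves an identity of 95.6%.
Nr2f1: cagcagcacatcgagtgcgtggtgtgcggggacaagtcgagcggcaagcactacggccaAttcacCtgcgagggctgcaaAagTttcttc
Nr2f2: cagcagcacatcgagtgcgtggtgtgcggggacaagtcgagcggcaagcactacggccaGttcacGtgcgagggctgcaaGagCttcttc
The longest identical run in the coding sequences was 59 bases. Of the 3158 possible stretches of 50 bases in the transcript Nr2f1-201, 10 (0.317%) also occur in Nr2f2-201.

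Promoter windows of 300 bases around the RefSeq gene start (GRCm38.p6) were matched for 5 of the 8 genes: Tcf21, Pdgfra, Nr2f1 (with 2 windows), Nr2f2 and Ptch1. The windows of Ptch1 (chr13:63565686-63565985, minus strand) and Pdgfra (chr5:75152001-75152300, plus strand) are shown. Pearson r between the levels of these 2 genes over the 6 libraries was 0.88, below the 0.91 of Nr2f1 and Nr2f2. A link between these sequences and the levels was not tested. Capitals mark CG pairs.
Ptch1: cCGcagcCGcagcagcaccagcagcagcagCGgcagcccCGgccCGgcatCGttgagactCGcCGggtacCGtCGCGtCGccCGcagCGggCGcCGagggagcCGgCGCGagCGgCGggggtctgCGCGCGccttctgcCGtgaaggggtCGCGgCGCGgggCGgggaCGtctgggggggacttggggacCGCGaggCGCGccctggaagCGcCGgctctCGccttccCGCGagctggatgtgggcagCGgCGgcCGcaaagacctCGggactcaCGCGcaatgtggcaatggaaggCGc
Pdgfra: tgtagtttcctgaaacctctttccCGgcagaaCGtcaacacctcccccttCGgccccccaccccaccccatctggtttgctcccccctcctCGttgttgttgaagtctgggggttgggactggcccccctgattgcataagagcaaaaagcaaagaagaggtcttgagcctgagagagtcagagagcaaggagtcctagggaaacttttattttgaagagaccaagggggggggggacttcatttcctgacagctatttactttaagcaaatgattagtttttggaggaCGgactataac
The Ptch1 window held 47 CG pairs and was 76.3% G or C, with more CG pairs than 98.6% of all windows, whose median was 7. It lies inside the span that GENCODE gives the gene, which begins further upstream. The Pdgfra window held 5 CG pairs and was 51.0% G or C. Searched on both strands, the GLI motif GACCACCCA was in 0.253% of the 32851 windows and its core CCACCCA, which the longer motif contains, in 9.30%, and neither was in any of the 6 windows of these genes. The E-box CANNTG, the motif class bound by bHLH factors such as TCF21, was in 72.3% of all windows and in 3 of these 6 windows, those of Pdgfra, Nr2f2 and 1 of the 2 of Nr2f1. A match or its lack describes only these letters in these windows.

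None of the 8 genes differed between exposed and control ovaries beyond the spread between libraries. The fitted ratios of exposed to control ran from 0.826 for Nr2f1 to 1.198 for Maf, and for every gene the range of the exposed libraries overlapped that of the controls. After adjustment over all tested genes by Benjamini and Hochberg's method, in the quasi-likelihood test of edgeR, 0 of the 8 passed an adjusted p of 0.05, where 0% of all genes did. At an unadjusted p of 0.05, 0 of the 8 passed, where 6.22% of all genes did (1254 genes), and 0 of the 8 had groups that did not overlap, where 10.7% of all genes had. The smallest adjusted p over these 20167 genes was 0.0906 in the edgeR test. DESeq2, run without the filter on low counts, called 236 of 32761 genes (0.72%) and none of these 8. The 2 counts thus differ in the genes tested as well as in the test. The median log2 fold change was 0.03 over the 8 genes and -0.0047 over all tested genes. In bulk RNA, a change in the number of stromal cells and a change in the RNA per stromal cell cannot be told apart.

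**Figure D1:**
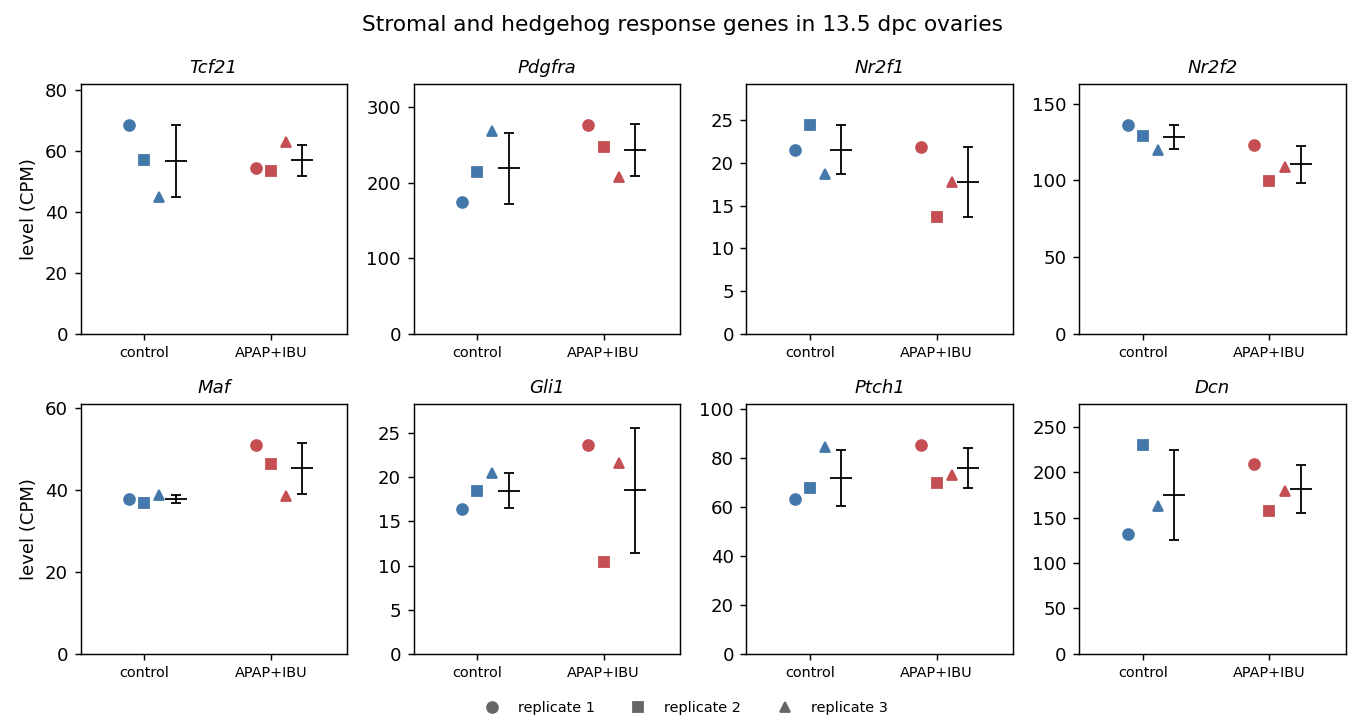
Level of each of the 8 genes in CPM (vertical axis, from 0) in the 3 control and 3 APAP+IBU libraries, with 1 point per library, its shape giving the replicate, and a bar for the mean and SD. The groups overlap in every panel, and exposed Gli1 runs from 10.4 to 23.6 CPM, beyond both ends of its controls.

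Among the transcription factors of the mesenchyme, Tcf21 encodes a bHLH factor needed for the development of mesenchyme in several organs, the gonad included (ENSMUSG00000045680, chr10:22817281-22820174, minus strand, mm10). Its level was 68.5, 57.0 and 44.9 CPM in control replicates 1, 2 and 3, and 54.5, 53.6 and 62.9 CPM in the exposed ones. The 3 exposed values lay inside the control range. The group means were 56.8 ± 11.8 CPM and 57.0 ± 5.14 CPM (SD, n = 3 each), a ratio of 1.003 with a 95% interval of 0.764 to 1.32 (adjusted p = 0.993 in edgeR's quasi-likelihood test).

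Nr2f1 (ENSMUSG00000069171, chr13:78188973-78199757, minus strand) was at 21.5, 24.4 and 18.7 CPM in the controls and at 21.9, 13.7 and 17.8 CPM in the exposed libraries. Exposed replicates 2 and 3 lay below the controls, and replicate 1 among them. The means were 21.6 ± 2.84 and 17.8 ± 4.11 CPM (SD, n = 3 each), with a log2 fold change of -0.28 (SE 0.21, edgeR adjusted p = 0.702) and an interval for the ratio from 0.594 to 1.15. Nr2f2 (ENSMUSG00000030551, chr7:70351944-70366735, minus strand), which marks interstitial progenitors in the fetal gonad, followed the same order within the exposed group. Its level was 136, 129 and 120 CPM in the controls and 123, 99.5 and 108 CPM in the exposed libraries. Again 2 of the 3 exposed values were below all controls. Means of 128 ± 7.92 and 110 ± 11.9 CPM (SD, n = 3 each) gave a log2 fold change of -0.22 (SE 0.13, edgeR adjusted p = 0.692), with an interval for the ratio from 0.704 to 1.05. Genes annotated on the opposite strand overlap both loci: the counts of A830082K12Rik amounted to 25.1% of those of Nr2f1, and those of B130024G19Rik to 13.1% of those of Nr2f2. The strand setting of the counting is not given in the sources used here, so how far reads of each pair were kept apart was not tested.

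Nr2f6, the remaining gene of the family that was tested, ran from 22.7 to 58.0 CPM in the controls and from 26.8 to 35.2 CPM in the exposed ovaries, with a log2 fold change of -0.40 (SE 0.31, edgeR adjusted p = 0.706). The fitted sign was negative for 3 of the 3 genes, and 0 of them passed the unadjusted threshold in this fit. The value of Nr2f6 depended on the fit, at -0.075 with a length and GC correction. With replicates 1 and 2 alone it was -0.80 (SE 0.19, edgeR adjusted p = 0.0215), where 27.2% of all genes passed. With the correction added to these it was -0.00019. Per kb of exon, the level of Nr2f2 was 3.11 to 4.29 times that of Nr2f1 in the 6 libraries, with means of 3.54 ± 0.373 in the controls and 3.74 ± 0.498 in the exposed ovaries (SD, n = 3 each, p = 0.6 in an exact two-sided permutation test). Across the 6 libraries the levels of the 2 genes had a Pearson r of 0.91, a description over few libraries that share scaling and group.

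Maf encodes a bZIP transcription factor found in interstitial cells and macrophages of the fetal gonad (ENSMUSG00000055435, chr8:115682942-115707794, minus strand). The controls were close together at 37.7, 36.9 and 38.9 CPM. The exposed libraries were at 50.9, 46.5 and 38.6 CPM, so that replicates 1 and 2 were above the controls and replicate 3 was level with them. The means were 37.9 ± 0.994 and 45.3 ± 6.23 CPM (SD, n = 3 each), with a log2 fold change of 0.26 (SE 0.14, edgeR adjusted p = 0.692) and an interval for the ratio from 0.958 to 1.498. Of the MAF family, 5 of 7 genes passed the filter and 0 of these 5 passed the unadjusted threshold. Mafg, a small MAF protein that pairs with other bZIP factors, had groups that did not overlap, at 77.7 to 93.2 CPM in the controls and 94.7 to 112 CPM in the exposed libraries. That is 1 of the 5 tested MAF genes, where 963 of the 20167 tested genes were higher with separate groups. The 8 macrophage genes summed to 110 to 126 CPM in the controls and 81.8 to 113 CPM in the exposed ovaries, and the fitted sign was negative for 8 of 8. Their part in the level of Maf was not tested.

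Pdgfra encodes the alpha receptor for platelet-derived growth factor, a receptor tyrosine kinase of mesenchymal cells (ENSMUSG00000029231, chr5:75152292-75198215, plus strand). Its level was 174, 213 and 269 CPM in the controls and 276, 247 and 207 CPM in the exposed libraries. The lowest value was control replicate 1 and the highest exposed replicate 1, but replicate 3 ran the other way, with the control above the exposed library. Means of 219 ± 47.6 and 243 ± 34.4 CPM (SD, n = 3 each) gave a log2 fold change of 0.15 (SE 0.19, edgeR adjusted p = 0.786), with an interval for the ratio from 0.825 to 1.501. Of the 6 ligands and receptors of the PDGF family, 0 passed the unadjusted threshold in the 6-library fit, and 1 higher and 3 lower did with replicates 1 and 2, where 41.0% of all genes did. Pdgfrb, the beta receptor of perivascular cells, was at 144, 161 and 148 CPM in the controls and 134, 115 and 128 CPM in the exposed ovaries. Its groups did not overlap, and its log2 fold change was -0.27 (SE 0.12, edgeR adjusted p = 0.692). With all 6 libraries, Pdgfrb passed the unadjusted threshold under upper quartile scaling, with a floor of 10 counts and with the length and GC correction. It also passed with replicates 1 and 2 alone. It missed the threshold in the reported fit, with DESeq2 and with the replicate block. Neither the block nor replicates 1 and 2, each combined with the correction, gave a pass. The ligand gene Pdgfc likewise had all exposed values, 40.9 to 46.8 CPM, below the control values of 47.4 to 52.7 CPM. That is 2 of the 6 PDGF family genes, where 1194 of the 20167 tested genes were lower with separate groups.

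Dcn encodes decorin, a small leucine-rich proteoglycan that binds collagen fibrils (ENSMUSG00000019929, chr10:97479609-97518143, plus strand). It was at 132, 229 and 163 CPM in the controls and 208, 157 and 179 CPM in the exposed libraries. The 3 exposed values lay inside the control range, whose ends differed by more than the groups did. The means were 175 ± 49.6 and 181 ± 25.9 CPM (SD, n = 3 each), with a ratio of 1.04 and an interval from 0.739 to 1.46 (edgeR adjusted p = 0.938). Of 10 genes of the proteoglycan family 9 were tested. Fmod, which encodes the collagen-binding fibromodulin, was the 1 gene that passed the unadjusted threshold, which it missed without control replicate 2. It was at 32.1, 35.7 and 24.2 CPM in the controls and 20.3, 23.5 and 17.2 CPM in the exposed libraries. Its groups did not overlap, and the log2 fold change was -0.59 (SE 0.19, edgeR adjusted p = 0.692). Of the 9 tested, 2 had exposed values all below the controls, where 1194 of the 20167 tested genes did. Lum, encoding lumican, had a level per kb that was 1.06 to 1.49 times that of Dcn in each of the 6 libraries.

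Gli1 encodes a GLI transcription factor and is itself switched on by hedgehog signalling, so that its transcript is a common readout of the pathway (ENSMUSG00000025407, chr10:127329882-127341974, minus strand). It was at 16.5, 18.5 and 20.5 CPM in the controls. The exposed libraries were at 23.6, 10.4 and 21.6 CPM, with replicates 1 and 3 above and replicate 2 below every control. The means were 18.5 ± 2.00 and 18.5 ± 7.10 CPM (SD, n = 3 each), a ratio of 1.004 with an interval from 0.630 to 1.599 (edgeR adjusted p = 0.996), the widest interval of the 8 genes. Arhgap9, on the opposite strand, has an annotated span that overlaps that of Gli1 by 62 bases, and its counts amounted to 8.96% of those of Gli1.

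Ptch1, the hedgehog receptor and a second target of the pathway (ENSMUSG00000021466, chr13:63508328-63573598, minus strand), was at 63.2, 67.9 and 84.6 CPM in the controls and at 85.2, 69.8 and 73.1 CPM in the exposed libraries. Control replicate 3 and exposed replicate 1 were nearly equal at the top of the range. The means were 71.9 ± 11.3 and 76.0 ± 8.12 CPM (SD, n = 3 each), with a log2 fold change of 0.08 (SE 0.15, edgeR adjusted p = 0.861) and an interval for the ratio from 0.831 to 1.34. Per kb of exon, the ratio of Gli1 to Ptch1 was 0.687 to 0.839 in 5 libraries and 0.425 in exposed replicate 2. Gli1 was thus low in that library beside Ptch1 as well as in CPM. The group means of this ratio were 0.733 ± 0.0431 and 0.683 ± 0.226 (SD, n = 3 each, p = 1 in an exact two-sided permutation test, whose smallest possible value with 3 against 3 is 0.1). In the same permutation test the log2 levels of the 8 genes gave p between 0.2 and 1.

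**Figure D2:**
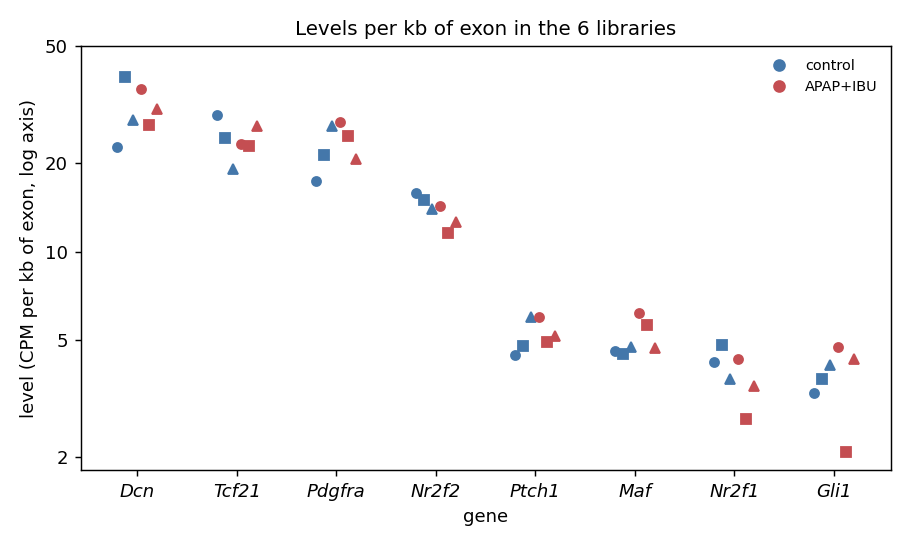
Level of the 8 genes per kb of exon (CPM per kb, log axis) in each library, with genes in order of their mean and marker shape giving the replicate as in the plot of CPM. Dcn, Tcf21, Pdgfra and Nr2f2 lie above the other genes in all 6 libraries, and exposed replicate 2 is the lowest point of Gli1.

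Compared per kb of exon, Dcn was the most abundant of the 8 at 30.5 ± 6.09 CPM per kb (SD, n = 6), followed by Tcf21 at 24.2 ± 3.47 and Pdgfra at 23.0 ± 3.95. These neighbours were not separated by their spread: Dcn was above Tcf21 in 5 of 6 libraries and Tcf21 above Pdgfra in 3 of 6. Nr2f2 came next at 13.8 ± 1.54 CPM per kb, below Pdgfra and above Ptch1 in 6 of 6 libraries. The lower group held Ptch1 at 5.22 ± 0.639, Maf at 5.05 ± 0.694, Nr2f1 at 3.86 ± 0.740 and Gli1 at 3.71 ± 0.933 CPM per kb. Ptch1 exceeded Maf in 3 of 6 libraries, and Nr2f1 exceeded Gli1 in 3 of 6. Raw counts ran from 478 for Gli1 to 13987 for Pdgfra in a library. The ratio of the highest to the lowest library was between 1.35 for Ptch1 and 2.26 for Gli1.

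The 8 genes did not rise and fall as a block across libraries. Pearson r over the 6 libraries was 0.88 between Pdgfra and Ptch1 and 0.54 between Gli1 and Ptch1, but -0.87 between Tcf21 and Pdgfra and -0.74 between Tcf21 and Ptch1. These values describe 6 libraries that share groups and scaling. Exposed replicate 1 held the highest value for 4 of the 8 genes (Pdgfra, Maf, Gli1 and Ptch1), a share of 50%, where 16% of all tested genes were highest there. Exposed replicate 2 held the lowest value for 3 of the 8 (Nr2f1, Nr2f2 and Gli1), a share of 37.5%, where 13.7% of all genes were lowest there. Control replicate 1 was lowest for as many, 3 of the 8 (Pdgfra, Ptch1 and Dcn), where 5702 of the 20167 tested genes were lowest there.

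A list of 31 hedgehog pathway genes, Gli1 and Ptch1 included, gave few calls. By edgeR's quasi-likelihood test no gene was higher and 3 genes lower at the unadjusted threshold of 0.05, a share of 9.68% beside 6.22% of all genes, and 0 passed after adjustment. The fitted sign was positive for 21 and negative for 10, with a median log2 fold change of 0.06. The 3 lower genes were the ligand gene Dhh, the co-receptor gene Gas1 and the forkhead gene Foxc2, and each of them missed the threshold when control replicate 1 or control replicate 2 was left out.

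All 3 hedgehog ligand genes were low. Dhh, the desert hedgehog ligand made by supporting cells of the fetal testis and later by granulosa cells, was at 3.23, 3.69 and 1.13 CPM in the controls and 1.24, 1.31 and 0.625 CPM in the exposed libraries. Control replicate 3 fell among the exposed values, so the groups overlapped. The log2 fold change was -1.33 (SE 0.49, edgeR adjusted p = 0.692). The spermatid genes were also higher in the controls, at 31.5 to 122 CPM against 1.42 to 4.99 CPM. Whether the material that carried them holds part of the Dhh level was not tested. Shh was at 0.997, 0.937 and 0.691 CPM in the controls and 2.23, 0.502 and 0.495 CPM in the exposed libraries. Ihh, the Indian hedgehog ligand, was at 0.708, 1.205 and 0.806 CPM in the controls and 2.07, 0.830 and 1.46 CPM in the exposed ones. Both were highest in exposed replicate 1. Of the genes for ligand release, Scube1, which encodes a secreted carrier of the lipid-bearing ligand, had groups that did not overlap, at 53.5 to 57.5 CPM in the controls and 62.3 to 65.6 CPM in the exposed libraries. That is 1 of the 8 listed ligand and release genes, where 963 of the 20167 tested genes were higher with separate groups.

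At the cell surface, Smo, which encodes the transducer that Patched holds silent, lay at 210 to 215 CPM in the controls and 214 to 226 CPM in the exposed ovaries. Gas1, which encodes a co-receptor that helps cells bind the ligand, was at 132, 118 and 90.7 CPM in the controls and 91.3, 82.4 and 86.9 CPM in the exposed libraries. The groups overlapped by control replicate 3, and the log2 fold change was -0.39 (SE 0.15, edgeR adjusted p = 0.692). Among the GLI factors, Gli3, which acts largely as a repressor when ligand is absent, was at 77.8 to 106 CPM in the controls and 80.6 to 99.6 CPM in the exposed ovaries. Gli2, the main activator upstream of Gli1, was at 27.5 to 31.9 and 24.2 to 28.2 CPM. Stk36 and Ulk3, both kinases linked to GLI activity, had groups that did not overlap and higher exposed values, at 21.3 to 22.7 and 19.3 to 20.9 CPM against control ranges of 16.9 to 20.5 and 16.6 to 18.8 CPM. Neither passed the unadjusted threshold. They were 2 of the 11 listed signal transduction genes, where 963 of the 20167 tested genes were higher with separate groups.

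Many of the 8 listed target genes, which include Gli1, Ptch1 and Hhip, took their highest or lowest value in the same exposed libraries. Exposed replicate 1 was the highest library for 6 of the 8 (75%), beside 16% of all tested genes, and exposed replicate 2 was the lowest for 4 of the 8 (50%), beside 13.7%. Hhip, which encodes a membrane protein that binds and removes the ligand, was at 3.28, 3.43 and 3.20 CPM in the controls and 6.13, 2.25 and 4.56 CPM in the exposed libraries. Its order within the exposed group was that of Gli1. Foxf1, a forkhead gene of ligand-receiving mesenchyme, was at 1.13, 0.964 and 0.760 CPM in the controls and 4.63, 0.371 and 0.807 CPM in the exposed libraries. Foxf2 was at 0.105, 0.428 and 0.369 CPM and then at 1.83, 0.328 and 0.208 CPM. Both genes were low, and Foxf2 did not reach 10 counts in every library. For both, exposed replicate 1 lay above all others while the other exposed libraries lay below the highest control. Without that library the log2 fold change of Foxf1 went from 1.04 to -0.70 and that of Foxf2 from 1.40 to -0.17. Foxc2, a forkhead gene of mesenchyme and vessel walls, was at 4.49, 4.61 and 2.42 CPM in the controls and 2.19, 1.62 and 2.26 CPM in the exposed libraries, with a log2 fold change of -0.92 (SE 0.32, edgeR adjusted p = 0.692). Its groups did not overlap, though control replicate 3 was close to the exposed values. That is 1 of the 8 target genes, where 1194 of the 20167 tested genes were lower with separate groups. The 7 mesonephros genes, from the tissue next to the ovary, summed to 99.7, 72.0 and 101 CPM in exposed replicates 1, 2 and 3, and to 82.0 to 97.0 CPM in the controls. Perivascular and smooth muscle genes summed to 348 CPM in exposed replicate 1 and to 230 to 322 CPM in the other 5 libraries. Their part in the values of these targets was not tested.

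**Figure D3:**
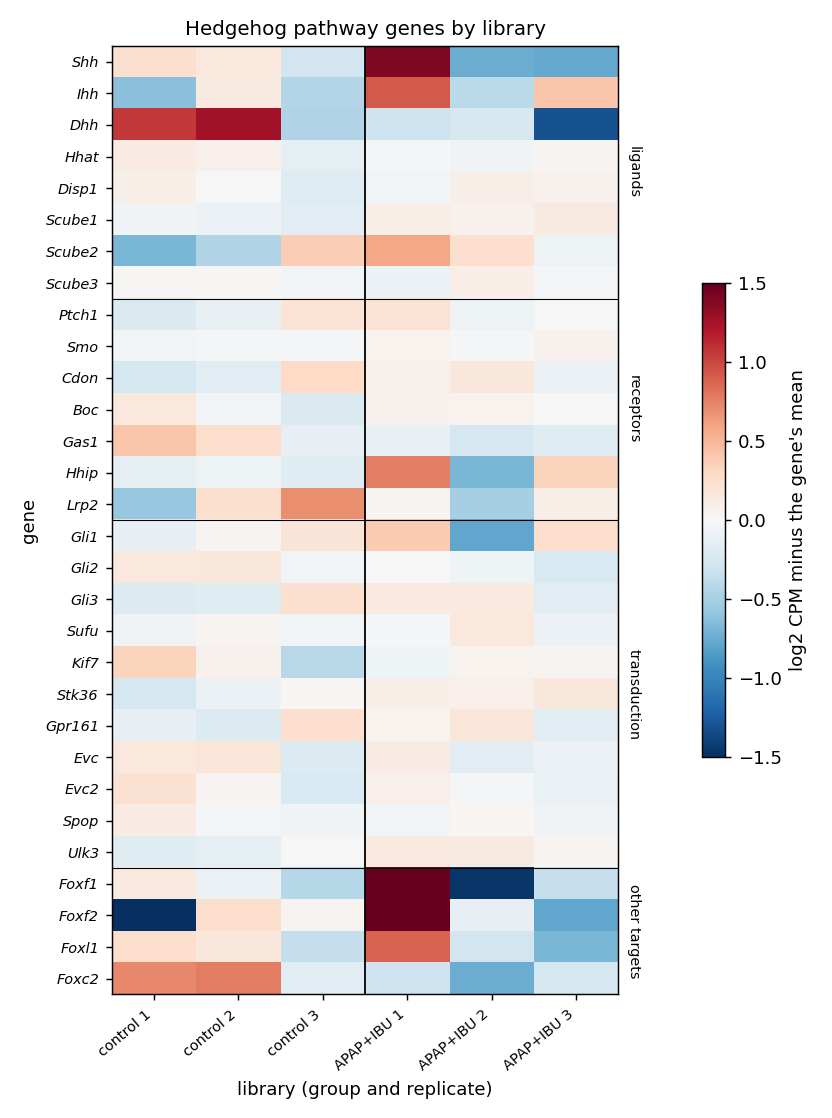
Level of 30 of the 31 listed hedgehog pathway genes (rows, by role) in each library (columns), as log2 CPM minus the mean of the gene over the 6 libraries, with colours saturating at the ends of the scale. Exposed replicate 1 is the darkest red for Shh, Ihh, Hhip, Foxf1 and Foxf2, and exposed replicate 2 the darkest blue for Gli1, Hhip and Foxf1.

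A wider list of 25 stromal and interstitial genes, which contains Tcf21, Pdgfra, Nr2f1, Nr2f2, Maf and Dcn, had mostly negative fitted signs, 8 positive and 17 negative, with a median log2 fold change of -0.19 beside -0.0047 for all genes. The unadjusted threshold was passed by 0 higher and 2 lower genes, a share of 8% beside 6.22%. These counts depended on the fit: 2 were higher and 8 lower with the length and GC correction, where 9.24% of all genes passed, and 2 were higher and 8 lower with replicates 1 and 2, where 41.0% passed. Both lower genes of the 6-library fit encode chains of type I collagen. Col1a1 was at 946, 914 and 423 CPM in the controls and 428, 526 and 380 CPM in the exposed libraries, with a log2 fold change of -0.78 (SE 0.30, edgeR adjusted p = 0.692). Col1a2 was at 1044, 1116 and 738 CPM and then at 745, 695 and 649 CPM, with a log2 fold change of -0.47 (SE 0.18, edgeR adjusted p = 0.692). Control replicate 3 fell within the exposed range for both, and both missed the threshold when control replicate 1 or 2 was left out. Cxcl12, a chemokine of mesenchymal cells, Pdgfrb and Tbx18, a T-box gene of mesenchyme near the mesonephros, had exposed values all below the controls. That is 3 of 25 genes, where 1194 of the 20167 tested genes were lower with separate groups.

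Since replicate 3 of both groups carried the liver transcripts, the fit was repeated with replicates 1 and 2 of each group alone. There 2 of the 8 genes passed an adjusted p of 0.05 in edgeR's quasi-likelihood test, both higher in the exposed ovaries, where 27.2% of all genes passed. The 2 genes were Pdgfra, with a log2 fold change of 0.45 (SE 0.13, adjusted p = 0.0360), and Maf, with 0.40 (SE 0.11, adjusted p = 0.0301). A share of 25% of the 8 is close to the background of this fit. Of the 31 hedgehog genes 3 rose (Scube2, Cdon and Gli3) and 3 fell (Dhh, Gas1 and Foxc2), a share of 19.4%. With a correction of each library for exon length and GC content added, 1 of the 8 passed, where 13.1% of all genes did. That gene was Nr2f2, which fell by 0.56 on the log2 scale (SE 0.12, adjusted p = 0.0242), and neither Pdgfra nor Maf passed. Of the 31 hedgehog genes 2 then rose (Scube2 and Ulk3) and 1 fell (Dhh), a share of 9.68%, while the log2 fold change of Gas1 went from -0.51 to -0.11 (adjusted p = 0.472), that of Gli3 from 0.36 to 0.096 (adjusted p = 0.501) and that of Foxc2 from -1.23 to -0.67 (adjusted p = 0.155). In these 4 libraries the erythroid genes summed to 5038 and 12471 CPM in the controls and to 2076 and 3289 CPM in the exposed ovaries, and the spermatid genes differed as above. Their part in these calls was not tested.

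**Figure D4:**
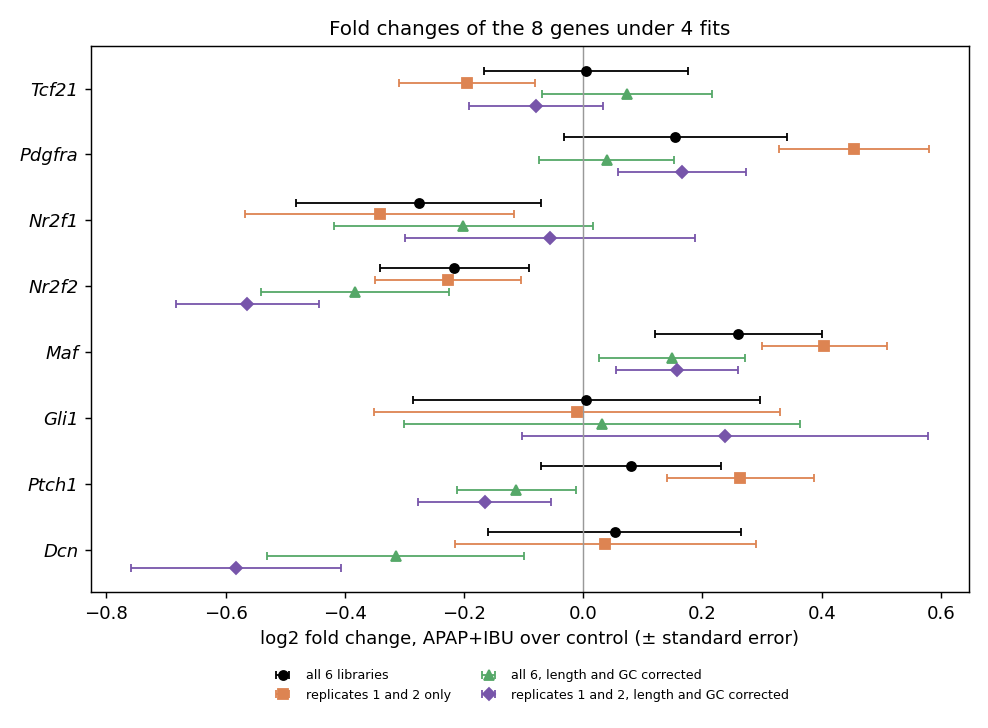
Log2 fold change of the 8 genes, exposed over control, with its standard error under 4 fits that use all 6 libraries or replicates 1 and 2, each with and without a length and GC correction. Tcf21, Gli1, Ptch1 and Dcn have points on both sides of 0, while Pdgfra and Maf stay above it and Nr2f1 and Nr2f2 below it in these 4 fits.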

How the data were processed

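The authors deposited raw read counts per gene for 6 libraries of 13.5 dpc ovaries (3 control, 3 APAP+IBU). Per the labels and the study's methods, stranded mRNA libraries were mapped to mm10 with TopHat2 2.0.14 and Bowtie2 2.1.0 and counted with HTSeq 0.6.1 on Ensembl annotation. The strand setting is not given in the sources used here, and the study tested with DESeq2. Of the 48709 identifiers, 48349 matched GENCODE M21, which gave symbols, coordinates and exon lengths. Genes kept by filterByExpr were fitted with edgeR 4.0.16 (quasi-likelihood test, limma 3.58.1, R 4.3.3) after TMM scaling. Alternatives were DESeq2 1.42.0 without this filter, other scalings, filters, a replicate block, a length and GC correction (loess span 0.3) and subsets of libraries. The tests were also run on simulated counts with a fixed dispersion. That run does not show how they behave with the spread between these libraries. Total counts of 37811968 to 48954631 per library bound counting error only.

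The 8 genes and all lists were chosen with earlier results of these data known. Named genes were the 8, listed pathway and family genes (always those with an unadjusted p under 0.05), and the 3 genes most like the pattern of Gli1 and Ptch1 and of the 6 stromal genes, by Pearson r among genes with a mean of at least 10 CPM. Each replicate was a separate pool of gonads, so p-values measure the spread between pools. Deviations from the group means of libraries with the same number had correlations of -0.069, -0.015 and -0.044. The reported fit did not treat the numbers as pairs, and a replicate block was run as an alternative. With 3 libraries per group, this check cannot decide whether they are pairs. The liver transcripts were high in replicate 3 of both groups. Sequences come from GENCODE M21 transcripts and RefSeq windows. Some listed genes enter the counts but are not reported here by name.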

Additional observations from a re-analysis of the deposited data

How the results depend on the processing

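The number of genes with an adjusted p under 0.05 was 0 in the edgeR fit of all 6 libraries, 236 with DESeq2, 120 with every gene of at least 1 count, 2 with the replicate block, 34 with the replicate block and the length and GC correction, 5607 with replicates 1 and 2 alone, 2709 with these and the correction, and 0 to 1064 with 1 library left out, the most without control replicate 3. At an unadjusted p under 0.05 the number was 1254, then 1915 with DESeq2, 2346 with every gene of at least 1 count, 681 with the replicate block, 8451 with replicates 1 and 2, 6287 with these and the correction, and 580 to 6294 with 1 library left out. Of the 8 genes, 0 passed the unadjusted threshold in the reported fit, 1 (Nr2f2) with the length and GC correction, 1 (Nr2f2) with the replicate block and the correction, 2 (Pdgfra and Maf) with replicates 1 and 2, 2 (Nr2f2 and Dcn) with these and the correction, and 0 to 1 with 1 library left out, the 1 being Maf without exposed replicate 3. The shares of all genes at that unadjusted threshold were 6.22, 9.24, 6.43, 41.0 and 30.5%, in the same order of fits. With 1 library left out they were 2.80 to 30.5%, and 11.4% without exposed replicate 3. After adjustment 2 of the 8 passed with replicates 1 and 2, where 27.2% of all genes did. With the correction added 1 passed, where 13.1% of all genes did. The groups of 0 of the 8 genes were separate over 6 libraries, of 0 to 3 with 1 library left out, the most without control replicate 3, and of 5 with replicates 1 and 2. Beside these stand 10.7% of all genes with 6 libraries, 14.7 to 48.6% with 1 left out, the most again without control replicate 3, and 68.5% with replicates 1 and 2. The cause of these changes was not tested.

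Several log2 fold changes near 0 changed sign. That of Tcf21 was -0.021 under upper quartile scaling, -0.0057 with a floor of 10 counts per library, -0.19 with replicates 1 and 2, -0.080 with these and the correction, and -0.14 to 0.16 with 1 library left out. For Gli1 it was -0.019 and -0.0053 under the same scaling and filter, -0.071 with the replicate block, -0.017 with the block and the correction, -0.010 with replicates 1 and 2, and -0.21 to 0.28 with 1 library left out. For Ptch1 it was -0.11 with the correction, -0.12 with the block added, -0.16 with replicates 1 and 2 and the correction, and -0.018 to 0.21 with 1 library left out. For Dcn the same settings gave -0.32, -0.27, -0.58 and -0.11 to 0.30. Gli3 gave -0.019 with the correction and -0.021 with the block added, Shh -0.032 with the replicate block and -0.81 to 0.63 with 1 library left out, and Hhip -0.17 with replicates 1 and 2 and the correction. Foxf1 ran from -0.70 to 1.51 and Foxf2 from -0.17 to 1.81 with 1 library left out. Pdgfra, Maf, Nr2f1 and Nr2f2 kept their sign in the 17 alternatives. Their log2 fold changes ranged from 0.013 to 0.45, 0.15 to 0.40, -0.46 to -0.056 and -0.56 to -0.16. The genes lower at an unadjusted p under 0.05 stayed negative in every alternative run, but Dhh, Gas1, Foxc2, Fmod, Col1a1 and Col1a2 each missed that threshold without control replicate 2, all of them but Fmod also without control replicate 1, and Gas1 and Col1a2 also with the replicate block. Gas1 also missed it with the length and GC correction (-0.23), with the block added (-0.24) and with replicates 1 and 2 and the correction (-0.11). Of the 25 stromal genes, 2 higher and 5 lower passed it with the block and the correction, where 6.43% of all genes did, and 1 higher and 8 lower with replicates 1 and 2 and the correction, where 30.5% did.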

Other observations

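The genes whose log2 CPM over the 6 libraries was most like the mean pattern of Gli1 and Ptch1, among 10972 genes with a mean of at least 10 CPM, were Enpep, Fzd6 and Tnfrsf22, with Pearson r of 0.991, 0.978 and 0.976. Enpep, which encodes an aminopeptidase found on pericytes and kidney epithelium, was at 13.4, 17.3 and 28.7 CPM in the controls and 30.0, 12.8 and 23.6 CPM in the exposed libraries. It was high in control replicate 3 and exposed replicates 1 and 3, and 57 genes in all had an r above 0.9. The genes most like the mean pattern of the 6 stromal genes were Lgi2, Smpdl3a and Camk2n1, with r of 0.984, 0.953 and 0.949, and 8 genes had an r above 0.9. The 6 stromal genes did not share 1 pattern, with an r of -0.87 between Tcf21 and Pdgfra. All of these genes were picked as the highest among 10972, so their high r follows in part from the choice. Each r describes 6 libraries that share groups and scaling.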
